A study of Mus musculus with 10 samples.

Results

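The 10 genes described here are MHC class I antigen presentation genes of the mouse: B2m, H2-K1, H2-D1, Tap1, Tap2, Tapbp, Nlrc5, Psmb8, Psmb9 and Psmb10. They were chosen by name, with earlier results of these data known, from 13252 genes in the expression table. All 10 were in the table and all 10 passed the filter on low values, a mean normalized count of at least 10, which left 10718 genes for testing. RNA was sequenced from CD4+ regulatory T cells (Treg cells) of the mouse that were sorted into 2 populations with 5 libraries each. Helios− cells were CD4+RFP+GFP− and Helios+ cells were CD4+RFP+GFP+, where GFP stands for Helios, the transcription factor encoded by Ikzf2. The sources used here do not say what RFP reports, what alleles both populations share, or whether the 5 libraries of a group came from separate mice, so the p-values measure the spread between these libraries. The series' design text speaks of wild-type and Helios-deficient cells, whereas the sample labels describe sorted populations, and the sample labels were followed.

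MHC class I molecules display short peptides from the inside of a cell to CD8+ T cells and natural killer cells. The peptides are cut from cytosolic proteins by the proteasome, whose catalytic subunits are exchanged for Psmb8, Psmb9 and Psmb10 in the immunoproteasome that dominates in lymphocytes. Tap1 and Tap2 form the transporter that carries the peptides into the endoplasmic reticulum, tapasin (Tapbp) holds the transporter and the empty class I molecule together, and the heavy chains H2-K1 and H2-D1 leave for the surface with peptide and beta-2-microglobulin (B2m). Nlrc5 is the class I transactivator, which is recruited to an enhanceosome of RFX, CREB/ATF and NF-Y proteins on class I promoters, and interferon acts on many of the same genes through IRF factors.

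The promoters of 4 members are printed: B2m, H2-K1 and H2-D1, which moved together across the libraries, and Tap1, which did not, as described further on. Tapbp and Psmb8 moved in the same direction as B2m and the heavy chains, and their windows are not printed. RefSeq promoter windows, each running from 250 bases before to 50 bases after the transcription start, were matched for 8 of the 10 members on GRCm38.p6, and Tap2 and Nlrc5 had no match. Capitals mark matches, on either strand, to AANNGAAA (an interferon regulatory factor consensus), an NF-kB type element (GGGA and CC with 4 bases of any kind between them), TGACG (the core of a cAMP response element) and CCAAT (the box bound by NF-Y). Matches that overlap are joined in the capitals.
B2m, chr2:122147437-122147736, plus strand: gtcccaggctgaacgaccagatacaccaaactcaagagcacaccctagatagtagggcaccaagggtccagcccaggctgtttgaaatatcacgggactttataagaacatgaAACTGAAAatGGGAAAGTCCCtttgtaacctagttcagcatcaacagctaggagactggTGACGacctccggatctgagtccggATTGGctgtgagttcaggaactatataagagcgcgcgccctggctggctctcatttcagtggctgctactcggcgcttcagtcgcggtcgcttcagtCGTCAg
H2-K1, chr17:34000298-34000597, minus strand: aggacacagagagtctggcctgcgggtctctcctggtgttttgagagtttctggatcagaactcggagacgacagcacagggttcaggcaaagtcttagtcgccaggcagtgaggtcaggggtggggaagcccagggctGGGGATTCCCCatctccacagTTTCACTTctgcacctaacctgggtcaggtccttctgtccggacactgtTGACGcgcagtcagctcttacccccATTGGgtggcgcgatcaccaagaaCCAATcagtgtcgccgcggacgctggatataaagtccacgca
H2-D1, chr17:35262844-35263143, plus strand: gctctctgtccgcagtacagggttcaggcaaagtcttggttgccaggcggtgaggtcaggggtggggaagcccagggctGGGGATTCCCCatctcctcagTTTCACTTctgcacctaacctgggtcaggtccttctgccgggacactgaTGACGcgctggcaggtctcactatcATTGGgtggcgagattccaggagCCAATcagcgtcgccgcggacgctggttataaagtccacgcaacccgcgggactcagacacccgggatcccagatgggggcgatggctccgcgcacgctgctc
Tap1, chr17:34187306-34187605, plus strand: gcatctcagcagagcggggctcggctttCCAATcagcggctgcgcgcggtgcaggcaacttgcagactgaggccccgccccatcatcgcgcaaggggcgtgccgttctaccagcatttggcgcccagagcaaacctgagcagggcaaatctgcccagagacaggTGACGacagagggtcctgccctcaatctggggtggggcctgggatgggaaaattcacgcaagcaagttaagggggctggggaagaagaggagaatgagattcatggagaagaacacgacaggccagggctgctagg

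B2m, H2-K1 and H2-D1 each held all 4 motifs, as did 0.286% of 32851 mouse promoter windows of the same length. The single motifs were found in 23.9% of those windows for AANNGAAA, 20.7% for the NF-kB type element, 20.8% for TGACG and 37.4% for CCAAT. The motif letters were chosen with the class I promoters in view, so the match is a description of these windows. Of the aligned bases of the H2-K1 and H2-D1 windows, 211 of 239 were identical (88.3%). H2-K1 has 2 RefSeq entries, of which the first was used. The Tap1 window held TGACG and CCAAT only, and the Psmb9 window, on the opposite strand, covers 275 of the same bases. Tapbp held CCAAT only, and none of the 4 motifs was found in the windows of Psmb8 and Psmb10. Tapbp and Psmb8 also moved in the direction of B2m. A link between the motifs and the values was not tested.

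In the genome annotation (GENCODE M21, GRCm38), 7 of the 10 members lie within the MHC on chromosome 17, from Tapbp to H2-D1 (chr17:33915899-35267499). H2-K1 lies at 33996017-34000347 on the minus strand and H2-D1 at 35262730-35267499 on the plus strand. Tapbp occupies 33915899-33929292, and a compact block holds Psmb9 (34181987-34187764, minus strand), Tap1 (34187553-34197225), Psmb8 (34197721-34201454) and Tap2 (34203527-34216321), all 3 on the plus strand. B2m lies on chromosome 2 (122147686-122153083), and Nlrc5 (94434356-94527272) and Psmb10 (105935735-105938444) lie on chromosome 8. The values are read counts summed over each gene. Tapbp shares 29.0% of its exon bases with Gm19412 or Zbtb22, Tap2 18.5% with 2 predicted genes, Psmb8 14.7% with 1 of them, and Psmb9 and Tap1 5.79% and 3.87% with each other. No source used here states the strand setting of the count, so reads from these overlaps could not be assigned to 1 gene. H2-K1 and H2-D1 have near copies in the class I family: 9.63% and 12.8% of their 50-base words occur in another gene, against 0% for B2m.

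The libraries held 4872348 to 6948692 reads assigned to genes, 5935899 ± 711966 in Helios− and 5970031 ± 899824 in Helios+ (SD, n = 5). Ikzf2 was at 418.2 to 572.2 normalized counts in the 5 Helios− libraries and at 9667 to 10906 in the 5 Helios+ libraries, in the direction of the labels. Foxp3, the lineage factor of Treg cells, was at 3284 to 3833 and Cd4 at 2860 to 4071 across all 10 libraries. Because all nucleated cells carry class I molecules, markers of other cells are given beside the values. The summed level of 9 of 10 B cell markers in the table was 1869 to 2615 in Helios− and 1649 to 2314 in Helios+. The sum over 11 of 12 myeloid markers was 370.5 to 540.1 and 478 to 726, with Cd14 at 0 to 4.19, over both CD8 chains 347 to 413 and 311 to 377, and over 4 of 5 natural killer cell markers 88.9 to 141 and 107 to 136. The most abundant gene was Cd22 among the B cell markers (320.5 to 651.3), Lyz2 among the myeloid (95.3 to 322), Cd8b1 of the CD8 chains (183 to 281), Eomes among the natural killer cell markers (32.8 to 74.0) and Il2ra among the Treg markers (3594 to 5046). The part of these cells in the values was not tested, and in bulk RNA fewer cells of a type and less RNA per cell cannot be told apart.

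With the group alone in the fit, limma called no member between Helios+ and Helios− cells at an adjusted p under 0.05. It called 24.8% of the 10718 genes, 14.1% higher and 10.7% lower in Helios+. The 10 log2 changes lay between −0.20 for Psmb10 and 0.13 for Tapbp, and their median size was 0.044, against 0.18 over all tested genes. The adjusted p-values ran from 0.145 to 0.961, and none of the 10 members reached an unadjusted p under 0.05, which 35.5% of genes did. edgeR on the recovered reads called 0 of the 10, while it called 24.6% of genes (14.6% higher and 10% lower). DESeq2 likewise called 0, while it called 26.6% of genes (14.9% higher and 11.7% lower). The 2 groups overlapped for all 10 members, while they did not overlap for 19.5% of tested genes. For 9 of the 10 the 95% interval of the log2 change lay within 0.5 of 0 on both sides, and Nlrc5 was the exception. The median standard error of the members was 0.098, against 0.12 over all tested genes. That of Nlrc5 was larger, at 0.22, and those of B2m and Psmb8 were also 0.12.

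**Figure D1:**
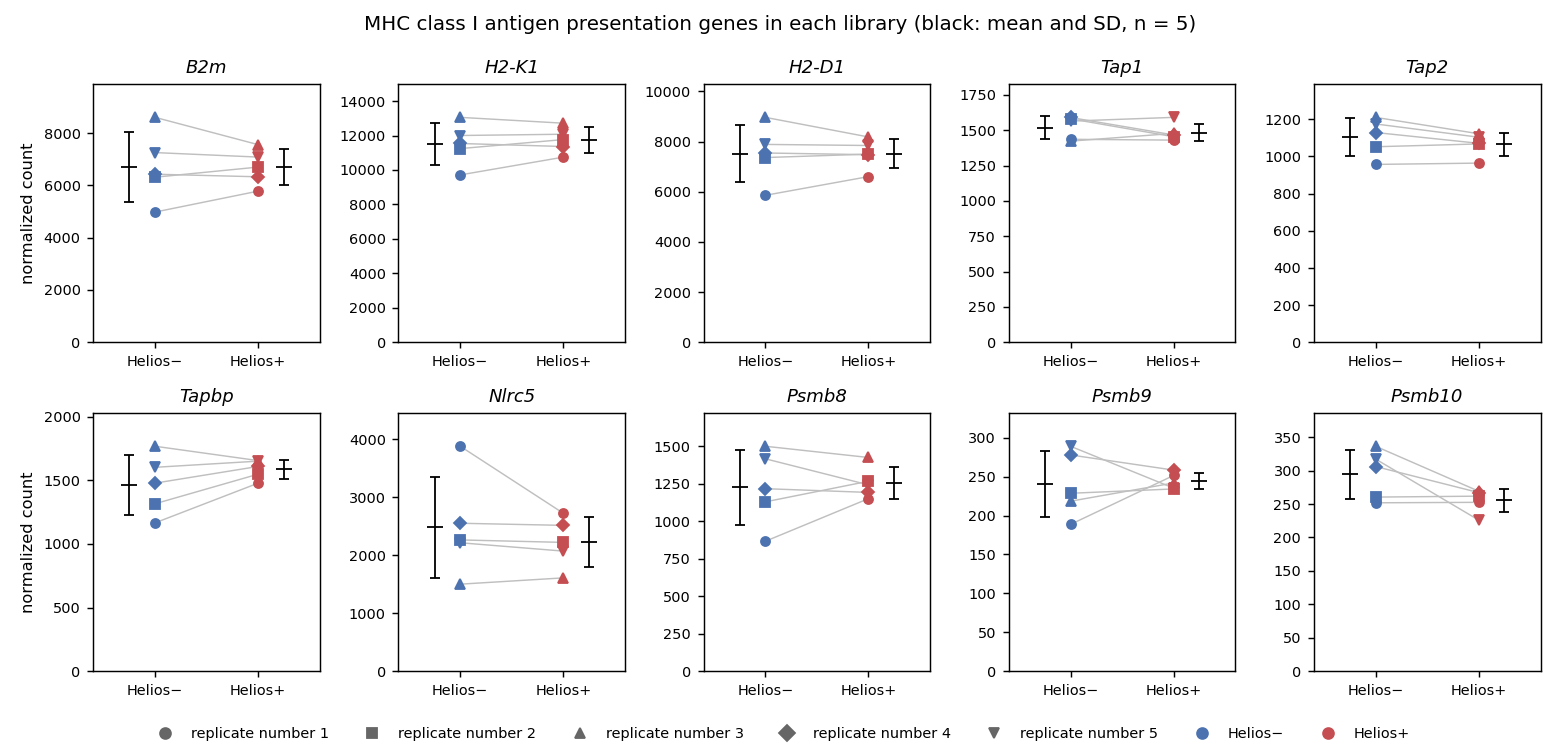
Normalized counts of the 10 members in each of the 10 libraries, with 1 panel per gene and the axis from 0. Symbols give the replicate number, grey lines join libraries of the same number, and black bars give mean and SD (n = 5). The groups overlap in every panel, and number 1 is the lowest and number 3 the highest in both groups for B2m, H2-K1, H2-D1, Tap2, Tapbp and Psmb8. Of all tested genes, 14.7% are lowest in number 1 of both groups, and 13.2% are highest in number 3 of both groups.

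The classical heavy chains and their light chain were the most abundant members. H2-K1, numbered by replicate from 1 to 5, was at 9713, 11242, 13054, 11538 and 12002 normalized counts in Helios− and at 10746, 11765, 12717, 11363 and 12076 in Helios+. H2-D1 was at 5856, 7360.5, 8962, 7542 and 7884 in Helios− and at 6600.5, 7497, 8181, 7475 and 7841 in Helios+. In both genes replicate 1 was the lowest and replicate 3 the highest library of each group, and the Helios+ range lay inside the Helios− range. The group means were 11509.8 ± 1217 and 11733 ± 741 for H2-K1 (SD, n = 5; log2 change 0.032, SE 0.086, limma adjusted p = 0.829). For H2-D1 they were 7521 ± 1119 and 7519 ± 589 (log2 change 0.0094, SE 0.10, limma adjusted p = 0.961), and the sign differs from that of the means because the change is a difference of mean logs. As a fold of Helios−, the 95% intervals for Helios+ ran from 0.901 to 1.16 for H2-K1 and from 0.867 to 1.17 for H2-D1.

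B2m, the light chain shared by all class I molecules, was at 4979.6, 6311.5, 8600.2, 6427 and 7253 in Helios− and at 5780.05, 6699, 7557, 6327 and 7082 in Helios+. Here too replicate 1 was the lowest and replicate 3 the highest library of each group. The means of 6714 ± 1332 and 6689 ± 683 (SD, n = 5) differed by far less than the libraries within a group (log2 change 0.011, SE 0.12, limma adjusted p = 0.9599). As for H2-D1, the difference of mean logs and that of the means have opposite signs. The 95% interval of the fold ran from 0.842 to 1.21. Within a library B2m and H2-D1 moved nearly in step. The ratio of H2-D1 to B2m ranged from 1.04 to 1.18, although B2m itself varied 1.73-fold and H2-D1 1.53-fold between the lowest and the highest library. H2-K1 varied less, 1.34-fold, and its ratio to B2m ranged from 1.52 to 1.95. That is 1.29-fold, nearly as wide as the range of H2-K1 itself.

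The transporter genes spanned narrower ranges. Tap1 was at 1436, 1581, 1423, 1590.4 and 1565 in Helios− and at 1430.3, 1454.5, 1478, 1467 and 1591 in Helios+. Tap2 was at 957, 1052, 1210.2, 1129 and 1175 in Helios− and at 964, 1067, 1122, 1071 and 1103 in Helios+. Tap1 varied only 1.12-fold over the 10 libraries, the narrowest range of the 10 members, and followed no replicate number, whereas Tap2 was lowest in replicate 1 and highest in replicate 3 of both groups. The means were 1519 ± 82.4 and 1484 ± 62.4 for Tap1 and 1105 ± 101 and 1065 ± 61.2 for Tap2 (SD, n = 5). The log2 changes were −0.033 (SE 0.061) and −0.049 (SE 0.073), with limma adjusted p = 0.748 and 0.688, and their 95% intervals ended at 0.894-fold and 1.07-fold for Tap1 and at 0.867-fold and 1.08-fold for Tap2. The sign of both changes turned with quantile normalization.

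Tapbp, the bridging factor of the loading complex, was at 1165.5, 1316, 1767, 1478 and 1602 in Helios− and at 1477.5, 1548, 1654.5, 1609 and 1650.4 in Helios+. Helios+ was the higher library in 4 of 5 pairs of the same replicate number, and the exception was number 3, whose Helios− library was the highest of all 10. The means were 1466 ± 236 and 1588 ± 75.1 (SD, n = 5; log2 change 0.13, SE 0.095, limma adjusted p = 0.367). Tapbp was the only member whose side of the threshold turned with the pairing in any tool. With the replicate number as a block the limma adjusted p was 0.0693, and edgeR with the same block gave a log2 change of 0.14 with an adjusted p of 0.0398. With the block, limma called 37.3% of tested genes (18.9% higher and 18.5% lower) and edgeR 37% (19.7% higher and 17.3% lower), so calls were more common among all genes as well. The overlap of Tapbp with Gm19412 and Zbtb22 given above touches this value, and Zbtb22 itself was lower in Helios+ (253.8 ± 29.7 and 203.5 ± 26.3, SD, n = 5; limma adjusted p = 0.0425).

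The 3 inducible catalytic subunits of the proteasome did not move as a unit. Psmb8 was at 866, 1128, 1498.5, 1216 and 1415 in Helios− and at 1149.5, 1265, 1424, 1191 and 1241 in Helios+. Psmb9 was at 189, 229, 218, 278 and 289 in Helios− and at 251, 234, 242, 258 and 235 in Helios+. The Helios+ range lay inside the Helios− range in both, and the lowest library was Helios− replicate 1. The means were 1225 ± 249.7 and 1254 ± 105 for Psmb8 and 240.5 ± 42.1 and 244 ± 10.5 for Psmb9 (SD, n = 5). The log2 changes were 0.056 (SE 0.12) and 0.039 (SE 0.11), with limma adjusted p = 0.787 and 0.838.

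Psmb10, the inducible trypsin-like subunit, was at 252, 260.4, 336, 306 and 317 in Helios− and at 253, 262, 269, 267 and 226 in Helios+. The groups overlapped, and Helios+ was lower in 3 of 5 pairs, by most in replicate 5. The means were 294 ± 36.7 and 255 ± 17.6 (SD, n = 5). The log2 difference was −0.20, its SE was 0.094 and its 95% interval ran from 0.758-fold to 1.00-fold (limma adjusted p = 0.145). This was the smallest adjusted p of the 10 members. Without Helios− replicate 1 it was 0.0483, and with the replicate block 0.0584.

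Each inducible subunit replaces a constitutive one, so their ratio within a library does not depend on how libraries were scaled. Psmb8 to Psmb5 was 18.0 ± 3.82 in Helios− and 18.2 ± 1.97 in Helios+ (SD, n = 5; exact two-sided permutation p = 0.857). Psmb9 to Psmb6 was 1.03 ± 0.186 and 0.975 ± 0.107 (exact permutation p = 0.659). Psmb10 to Psmb7 was 1.82 ± 0.384 and 1.52 ± 0.138 (exact permutation p = 0.127). After adjustment over the 3 ratios the p-values were 0.857, 0.857 and 0.381. The smallest p that free exchange of the 10 libraries allows, before adjustment, is 0.00794. With group labels exchanged only within a replicate number, the exact permutation p-values were 0.875, 0.688 and 0.25. The smallest p possible in that form is 0.0625, so it could not pass 0.05. Psmb5 shares 54.1% of its 50-base words with other genes, so the first ratio is uncertain as a level. The 3 constitutive subunits themselves gave 0 calls, with limma adjusted p of 0.963 for Psmb5, 0.479 for Psmb6 and 0.906 for Psmb7. The other 11 subunits of the core particle gave 0 calls by limma, edgeR and DESeq2, and 0 at an unadjusted p under 0.05.

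Nlrc5, the transactivator, was at 3879.7, 2264, 1501, 2551.5 and 2215 in Helios− and at 2724.5, 2221, 1609, 2515 and 2071 in Helios+. The order of the replicate numbers from low to high was 3, 5, 2, 4, 1 in both groups, nearly the reverse of the order in the heavy chains. The means were 2482 ± 872 and 2228 ± 429 (SD, n = 5), and the log2 difference of −0.11 (SE 0.22; adjusted p = 0.769 in limma) had the widest interval of the 10 members, from 0.661-fold to 1.30-fold. With the replicate block the interval narrowed to −0.26 to 0.039 on the log2 scale, with an adjusted p of 0.235.

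**Figure D2:**
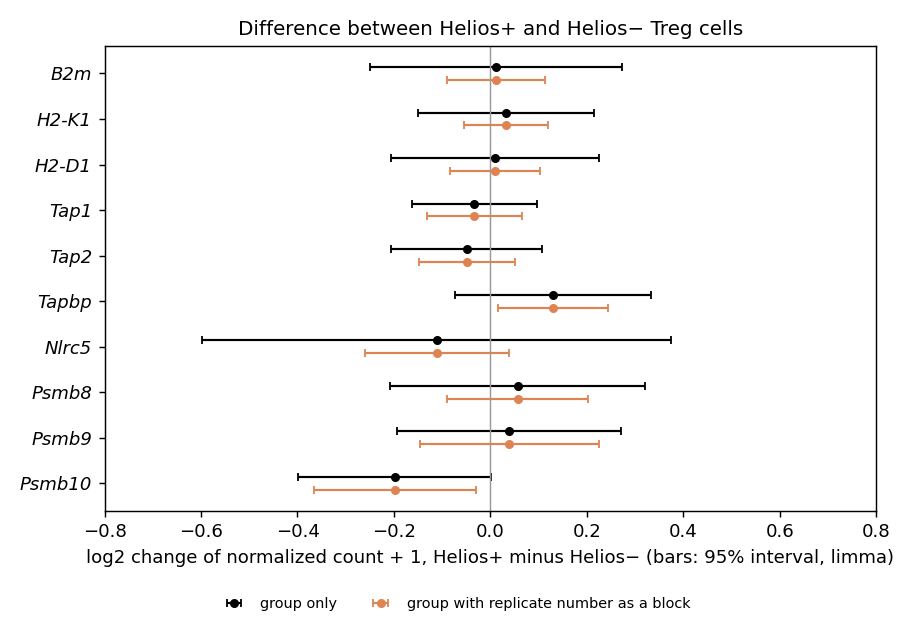
Log2 change of the 10 members, Helios+ minus Helios−, with 95% intervals from limma on log2(normalized count + 1), for the fit with the group only and the fit with the replicate number as a block. Intervals of the first fit all include 0, and with the block those of Tapbp and Psmb10 do not, at adjusted p = 0.0693 and 0.0584.

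Compared per kilobase of annotated exon, B2m stood first at 7793 normalized counts, followed by H2-K1 at 3956 and H2-D1 at 2916, averaged over the 10 libraries. The range of B2m (5790.3 to 10000.2) did not overlap that of H2-K1 (3306 to 4443), while H2-D1 (2271 to 3475) overlapped H2-K1. Tapbp and Psmb8 followed at 421 and 367 and overlapped in range. Tap2, Nlrc5 and Tap1 were at 287, 277 and 274 and were not separable. Psmb10 at 161 (132.6 to 197) and Psmb9 at 66.2 (51.5 to 79.0) were the lowest. Psmb10 lay below Tap1 and Tap2 in range but overlapped Nlrc5 (177 to 457), and Psmb9 lay below all others. Divided by the longest coding transcript instead, H2-K1 came to 7178 against 7793 for B2m, Psmb8 (761) passed Tapbp (527), and Tap1 (509) passed Tap2 (315) and Nlrc5 (311), so only the first 3 and the last 2 places held under both lengths.

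Although the 10 members did not separate the populations, most of them separated the replicate numbers. The numbers in the sample titles pair the libraries: in each of the 5 pairs the deviations from the group means correlated between Helios− and Helios+ (r of 0.146 to 0.481 across genes), and all 10 libraries correlated best with their own number. The labels do not say what libraries of 1 number share. A moderated F test of the number beside the group, chosen after the values were seen, called 6 of the 10 members, against 18.3% of tested genes. These were B2m (adjusted p = 2.16e-04), Nlrc5 (2.29e-04), H2-D1 (0.00108), H2-K1 (0.0106), Tapbp (0.0171) and Psmb8 (0.0180), all from limma. Tap2 missed the threshold at 0.0611, and Tap1 (0.531), Psmb10 (0.490) and Psmb9 (0.381) were far from it. Without Helios− replicate 3 the count was 3, against 10.7% of tested genes in that fit. The 3 were B2m, H2-D1 and Nlrc5, which were called in each of the 20 settings tried. Without both libraries of number 1 the count was 4, against 1280 of the 10718 tested genes in that fit. Without both of number 3 the count was also 4, against 1083 of the 10718 genes. With all libraries 1963 genes were called by number. H2-K1 was lost in each of these 2 fits without a number. With quantile normalization the count was 5, against 18.3% of genes, and H2-K1 was again the gene lost (adjusted p = 0.496).

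Replicate number took 80.9% of the variation over the 10 libraries in the median member and the group 2.11%, against 44.3% and 22.4% in the median tested gene. The share of the number was the larger in 9 of the 10 members, Psmb10 being the exception, and in 63.0% of all tested genes. For H2-D1 the number took 90.5%, for H2-K1 89.7%, for Nlrc5 89.5% and for B2m 89.4%, with group shares of 0.0868%, 1.93%, 2.29% and 0.0777%. Psmb10 had 36.0% for the group and 30.7% for the number, the latter below the 44.3% of the median tested gene.

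**Figure D3:**
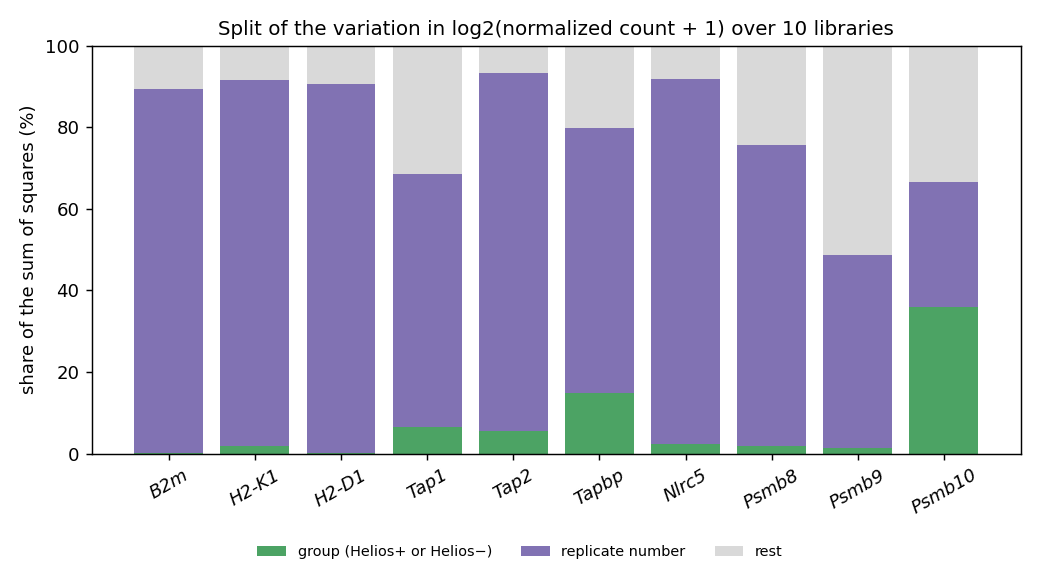
Share of the sum of squares of log2(normalized count + 1) over the 10 libraries that goes with the group, with the replicate number and with neither, in percent, for each member. The number takes the larger share in every member but Psmb10.

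The members called by number ran in 2 opposite directions. From number 1 to number 3 the log2 difference was 0.79 in Helios− and 0.39 in Helios+ for B2m, 0.61 and 0.31 for H2-D1, and 0.43 and 0.24 for H2-K1. Psmb8 gave 0.79 and 0.31, Tapbp 0.60 and 0.16, and Tap2 0.34 and 0.22. Nlrc5 gave −1.37 and −0.76. These 7 genes kept their direction in both groups under TMM scaling and quantile normalization, while the median of all tested genes was 0.0089 and 0.010. Quantile normalization shrank the heavy chains most in Helios−, to 0.046 for H2-K1 and 0.31 for H2-D1. Among all tested genes the middle 90% of the differences, averaged over both groups, lay between −0.84 and 0.58, so B2m at 0.59 and Nlrc5 at −1.06 fell just outside, on opposite sides. Tap1 and Psmb9, which share most of their promoter window, did not join: Tap1 gave −0.013 and 0.047, and Psmb9 0.21 and −0.056.

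**Figure D4:**
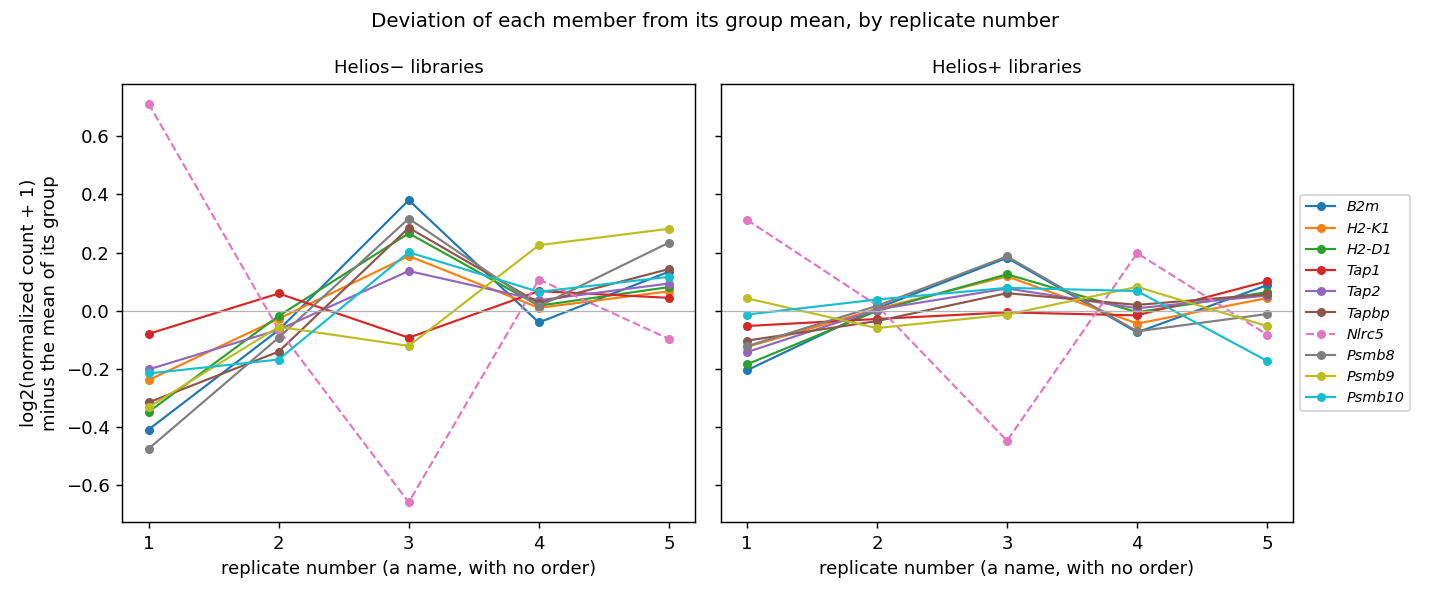
Deviation of each member from the mean of its own group on the log2(normalized count + 1) scale, at each replicate number, with Helios− libraries on the left and Helios+ on the right. The numbers are names without order and the lines only link the points of a gene; Nlrc5 (dashed) lies on the other side of 0 from B2m, H2-K1 and H2-D1 at numbers 1 and 3 in both groups.

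Other measures of the libraries moved with the number. Malat1, a nuclear long noncoding RNA, took 3.64% of the reads in replicate 1 and 1.43% in replicate 3 of Helios−, and 2.27% and 1.30% in Helios+. Reads assigned to Rn45s, the ribosomal RNA precursor, took 8.54% and 18.6% in Helios−, and 10.3% and 13.8% in Helios+. The summed level of the Treg markers was lowest in number 1 and highest in number 3 of both groups, as B2m was, at 15559 and 20012 in Helios− and 18179 and 21628 in Helios+. The B cell markers had their highest sum in number 1 of both groups, 2615 and 2314, against 2009.7 and 1761 in number 3. Number 1 had the highest share of Malat1 and number 3 the lowest within each group, the order of Nlrc5 at its ends and the reverse of B2m. Their part in the values of the members was not tested. All 10 members had the larger standard deviation in the Helios− libraries, as did 64.0% of tested genes, and the Malat1 share likewise spread more widely there.

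The genes whose pattern over the 10 libraries lay closest to that of Nlrc5 were Ttc14, Fnbp4 and Dennd1c. Their log2 values, centred on each gene's mean, differed from those of Nlrc5 by a root mean square of 0.064, 0.066 and 0.077, where the standard deviation of Nlrc5 itself was 0.37. For H2-K1 they were Adrbk1 (0.025), Dcaf7 (0.025) and Hspa4 (0.027), with a standard deviation of 0.12 for H2-K1. Ttc14 was at 1597 normalized counts in replicate 1 and 676 in replicate 3 of Helios−, and at 1058 and 681 in Helios+. The search covered 8026 genes with a mean of at least 50, all measured in the same libraries.

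Beyond the 10 members, 4 of the other class I chains passed the test between the populations. Of 32 listed chains 12 could be tested. Helios+ cells had more of 2 and less of 2 others, a share of 33.3% called against 24.8% of all tested genes, and the median log2 change of the 12 was 0.035 beside −0.019 for all tested genes. H2-Q6, a Qa-2 family chain, was at 612.6, 557.8, 415, 541 and 563.5 in Helios− and at 949, 920, 761.5, 871 and 825 in Helios+. Every Helios+ library lay above every Helios− library, and the means were 538 ± 73.7 and 865 ± 75.0 (SD, n = 5; log2 change 0.69, SE 0.10, limma adjusted p = 6.32e-05). H2-Q8, of the same family, was at 296, 235, 154, 251 and 232 in Helios− and at 416, 353, 284, 361 and 360.5 in Helios+ (log2 change 0.62, SE 0.15, limma adjusted p = 0.00596). Its groups overlapped, since Helios+ replicate 3 lay below Helios− replicate 1. H2-Q6 shares 35.0% of its 50-base words with other genes, so reads may have been divided within the family. H2-Q8 was not found under that name in the annotation used, so no such value can be given for it. The 35.0% therefore does not count words shared with an entry named H2-Q8, and the calls of H2-Q6 and H2-Q8 may not be separate. H2-Q4, another chain of that region with 36.4% of shared words, gave −0.094 (limma adjusted p = 0.665).

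H2-T24, a nonclassical chain, was at 1088, 817, 702, 1024 and 980 in Helios− and at 643, 481, 409, 629.5 and 607 in Helios+. The groups did not overlap, and the means were 922 ± 159 and 554 ± 103 (SD, n = 5; log2 change −0.74, SE 0.14, limma adjusted p = 0.00163). Mr1, which presents microbial vitamin B metabolites to MAIT cells, averaged 282 ± 18.3 and 225 ± 41.4 (SD, n = 5; log2 change −0.34, SE 0.12, limma adjusted p = 0.0417). Its groups overlapped. With the group only, its call was lost when any of 6 libraries was left out (Helios− replicates 2, 3 and 5, Helios+ replicates 1, 3 and 4). The adjusted p then ran from 0.0596 to 0.0959, and edgeR also lost the call (adjusted p = 0.0515). With the replicate block the limma adjusted p of Mr1 was 0.00374. H2-T23, the Qa-1 chain that binds CD94/NKG2A, was at 1047.5 ± 98.0 and 1067 ± 41.3 (SD, n = 5; log2 change 0.031, limma adjusted p = 0.795). H2-Q4, H2-Q6, H2-Q8 and H2-T24 were lowest in number 3 of both groups, where H2-K1 and H2-D1 were highest. These 4 chains were picked after their values were seen, and Mr1 was not among them, with 0.088 in Helios− and 0.34 in Helios+ as its log2 difference from number 1 to number 3.

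**Figure D5:**
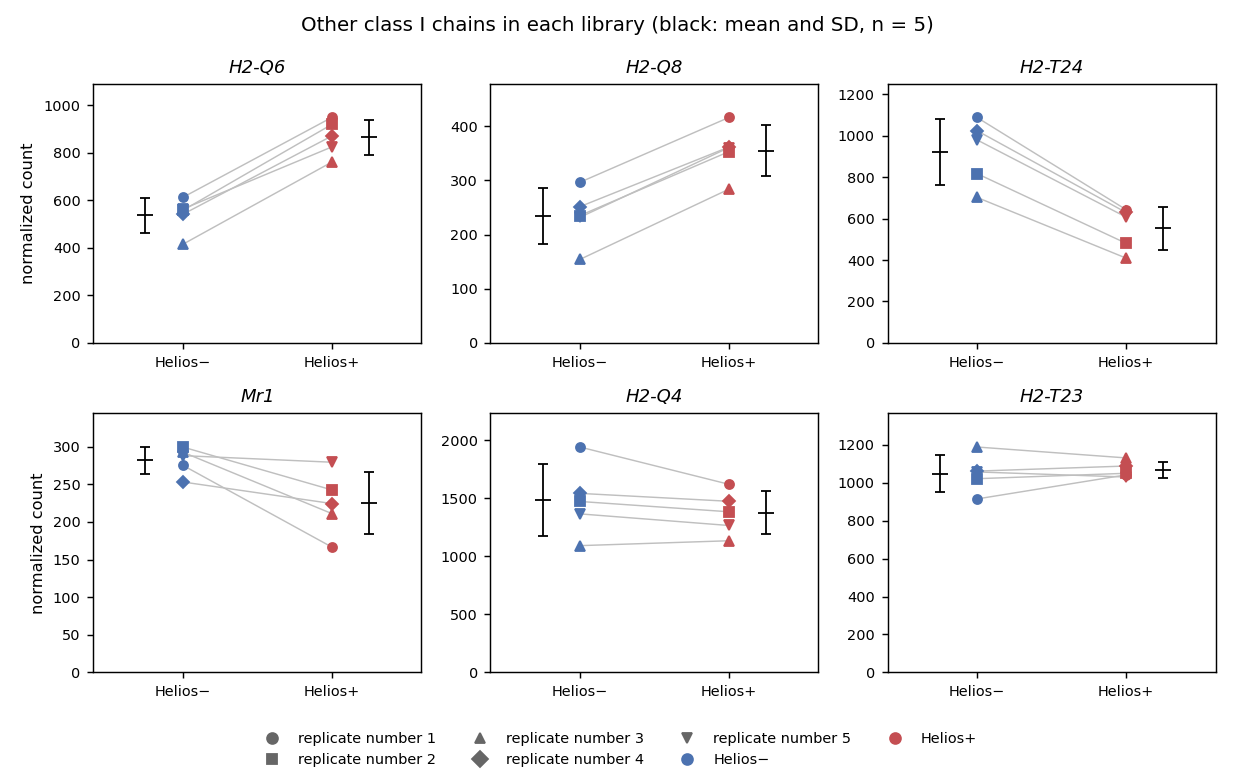
Normalized counts of 6 other class I chains in each library, with the axis from 0, symbols for the replicate number, and black bars for mean and SD (n = 5). H2-Q6 and H2-T24 separate the populations in opposite directions without overlap, H2-Q8 and Mr1 differ with overlap, and H2-Q4 and H2-T23 do not pass the test.

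Genes that work before and after the members are read against the 24.8% of all tested genes called between the populations (14.1% higher and 10.7% lower). Among 10 proteasome activators and assembly factors 1 was called. This was Psme1, a subunit of the interferon-inducible PA28 activator, which was higher in Helios+ (2140.2 ± 343 and 2601 ± 105, SD, n = 5; log2 change 0.30, SE 0.095, limma adjusted p = 0.0330). Its call with the group only was lost without any of 6 libraries (Helios− replicates 2 and 4, Helios+ replicates 2 to 5). The adjusted p then ran from 0.0647 to 0.0822. With the replicate block, where limma called 37.3% of all tested genes, its limma adjusted p was 2.39e-04. Its partner Psme2 gave −0.029 (limma adjusted p = 0.843). Of 8 cytosolic peptidases, 3 were higher and 0 lower (37.5% called, against 24.8% of all genes): Ide (386 ± 34.6 and 512 ± 32.1), Blmh (220.4 ± 38.1 and 279.7 ± 23.4) and Thop1 (28.3 ± 4.49 and 45.8 ± 12.2; SD, n = 5 in each). The limma adjusted p-values were 9.36e-04, 0.0335 and 0.0304. With the group only, the call of Blmh was lost without any of Helios− replicates 1 and 4 and Helios+ replicates 2, 3 and 5. That of Thop1 was lost without any of Helios− replicates 2 and 5 and Helios+ replicates 1, 4 and 5. Without both libraries of number 1 the list had 1 call. With the replicate block the limma adjusted p was 0.00135 for Blmh and 0.00653 for Thop1. Thop1 was also lost with quantile normalization (log2 change 0.44, adjusted p = 0.121).

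Of 10 genes of trimming and loading in the endoplasmic reticulum 2 were called (20%, against 24.8% of all genes). Hspa5, the chaperone BiP, was higher in Helios+ (1621 ± 154 and 2079.8 ± 123, SD, n = 5; log2 change 0.36, limma adjusted p = 0.00175). Uggt1, a folding sensor, was lower (1964 ± 96.3 and 1704 ± 51.2, SD, n = 5; log2 change −0.20, limma adjusted p = 0.0178), and with quantile normalization its call was lost (−0.12, adjusted p = 0.123). With the replicate block 5 genes of the list were higher and 1 lower, beside 18.9% higher and 18.5% lower of all genes in that fit, adding Calr (block adjusted p = 0.0266), Canx (0.0479) and Pdia3 (0.0121), chaperones of the loading complex or of its precursor, among the higher ones. The list's median log2 change was 0.070. Erap1, the trimming peptidase, gave −0.055 (limma adjusted p = 0.592).

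Regulators of class I genes were called in both directions: of 30 tested, 5 were higher and 4 lower in Helios+, with a median of −0.058, and with the replicate block 8 were higher and 8 lower. The calls were 30% of the list, against 24.8% of all genes, and with the block 16 of 30, against 37.3%. The higher ones included Rel (413 ± 39.6 and 579 ± 39.9) and Nfkb1 (1927 ± 89.9 and 2415 ± 173), which are NF-kB subunits, Ifnar2 (539.8 ± 41.9 and 734 ± 52.8), Jak2 (1039 ± 61.5 and 1262 ± 55.0) and Prdm1 (122 ± 10.4 and 187 ± 22.9; SD, n = 5 in each). Lower were Ifngr2 (312 ± 17.3 and 222 ± 20.9), a chain of the interferon gamma receptor, Jak1 (7723 ± 798 and 5903 ± 301), the most abundant gene of the list, whose log2 change of −0.38 shrank to −0.24 with quantile normalization, and Irf9 (948 ± 52.5 and 796 ± 31.4; SD, n = 5 in each). The fourth was Nfya, a subunit of NF-Y (533.9 ± 42.7 and 440.2 ± 48.2, SD, n = 5; limma adjusted p = 0.0221). Its call with the group only was lost without any of 6 libraries (Helios− replicates 2 and 4, Helios+ replicates 1, 2, 3 and 5). With the replicate block its limma adjusted p was 9.07e-04. Irf1, a main carrier of the interferon signal to class I genes, gave −0.13 (limma adjusted p = 0.314), and Rfx5, the DNA-binding RFX subunit, gave 0.29 (limma adjusted p = 0.0769).

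MHC class II genes, which serve CD4+ T cells, gave 1 call among 10 (10%, against 24.8% of all genes), H2-Oa, which was higher in Helios+ (66.8 ± 6.90 and 108 ± 10.2, SD, n = 5; limma adjusted p = 4.30e-04). Of 6 tested receptors for MHC molecules 2 were called (33.3%). Lag3 was higher (49.2 ± 8.63 and 90.4 ± 31.3) and Klrk1, which binds class I-like ligands, lower (31.9 ± 1.98 and 19.7 ± 5.88; SD, n = 5 in each), at limma adjusted p = 0.0171 and 0.0251. With the group only, the call of Lag3 was lost without Helios+ replicate 4. That of Klrk1 was lost without Helios− replicate 5 or Helios+ replicates 1 or 4. With the replicate block the limma adjusted p was 1.38e-04 for Lag3 and 0.0132 for Klrk1. Between Tapbp and H2-D1 on chromosome 17, 54 other genes were tested, with 2 higher (Ehmt2 and H2-Oa) and 6 lower (B3galt4, Col11a2, Rxrb, Slc39a7, Wdr46 and Zbtb22), or 14.8%, below the 24.8% of all tested genes, while 0 of the 7 members that lie there were called. Prrc2a, the most abundant of the 54, averaged 3591 ± 132 and 3713 ± 126 (SD, n = 5; limma adjusted p = 0.613).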

How the data were processed

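Total RNA was prepared with a strand-aware SMARTer Pico kit from sorted cells, per the labels' protocols. The deposited signal values are normalized counts per gene; the submitters' processing notes name mm10, HISAT2 2.0.4, HTSeq and DESeq2 without roles, and the annotation and gene filter, not given in the sources used here, are unknown. Each library's deposited values were whole multiples of 1 step (100% of values, tolerance 0.001), from which whole reads were recovered.

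Here the values were tested as log2(normalized count + 1) with limma 3.58.1 (trend, robust; R 4.3.3) over 10718 genes with a mean of at least 10, with the group only, Benjamini-Hochberg adjustment and a threshold of 0.05. A fold on this scale understates the change of low genes. Called means past that threshold. Alternatives were other pseudocounts (0.5, 5), no filter, a minimum of 50, TMM and quantile scaling, the replicate block, edgeR 4.0.16 and DESeq2 1.42.0 on recovered reads (2637 and 2846 genes called), and leaving out each library. Added after seeing the data were edgeR with the block, fits without both libraries of a number, and the test of the number. The replicate numbers come from the sample titles and were taken to pair the libraries because all 5 correlations were above 0.1 (0.146 to 0.481). The limma fit with the group only and edgeR without the block were tested on simulated data that had no effect of replicate number. The other fits and the test of the number were not tested in this way.

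Members and gene lists were chosen with earlier results of these data known. Named are all members, called genes of short lists, and up to 8 called genes and the most abundant gene of longer lists; genes named outside this rule (Psme2, Erap1, Calr, Canx, Pdia3, Irf1, Rfx5, H2-Q4, H2-T23, Nfya) were chosen after their values were seen. Same-group libraries differed beyond sampling noise (chi-square per degree of freedom 3.53 to 52.3 over 20 pairs), so none was counted as a duplicate.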

Additional observations from a re-analysis of the deposited data

Results flagged for a closer look

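Among 70 groups of 5 libraries (the 10 members, the called genes of the lists and the 3 subunit ratios, in each population), 2 held a library that stood apart from the other 4 by Dixon's gap test, where chance flags about 1 in 20 groups. Neither concerns a member. Ifnar2 was at 824.1 normalized counts in Helios+ replicate 5, with the other 4 Helios+ libraries at 694.7 to 729.8. Nfya was at 525.6 in Helios+ replicate 4, with the others at 409.7 to 428.8.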

How the results depend on the processing

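Over 22 alternatives, the 10 members gave 220 values, of which 199 kept direction and side of the threshold, 19 changed sign and 2 passed the threshold (Tapbp at 0.14 by edgeR with the replicate block, so that 1 member was called higher, and Psmb10 without Helios− replicate 1). Signs changed for Tap1 (0.042) and Tap2 (0.0011) with quantile normalization, for B2m (−0.000225) with DESeq2, and without both libraries of number 1 for B2m (−0.039), H2-D1 (−0.031), Psmb8 (−0.032) and Psmb9 (−0.055); the cause was not tested. Leaving out 1 library gave −0.091 to 0.11 for B2m, −0.027 to 0.079 for H2-K1, −0.078 to 0.076 for H2-D1, −0.058 to −0.016 for Tap1, −0.099 to −0.013 for Tap2, 0.051 to 0.20 for Tapbp, −0.28 to 0.067 for Nlrc5, −0.062 to 0.14 for Psmb8, −0.044 to 0.11 for Psmb9 and −0.25 to −0.15 for Psmb10, with 0 to 1 members called lower, 0 called higher, and 3 to 6 called by number. For all genes it gave 2259 to 2907 calls between the populations, and 10.7% to 23.8% of genes called by number.

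With the replicate block limma called 4000 genes, 5 peptidases, 6 loading genes, 16 regulators, 4 receptors and 14 genes of the MHC region, and 0 members. edgeR with the block called 1 other core subunit, 6 loading genes, 15 regulators, 4 receptors and 15 genes of the region. With a minimum of 50, 1 receptor was called, and without both libraries of number 1, 1 peptidase. Leaving out 1 library gave 5 to 9 calls in the region, 3 to 4 class I chains, 0 to 4 receptors, 2 to 4 loading genes, 1 to 4 peptidases, 0 to 1 other core subunits, 0 to 1 activators and 8 to 12 regulators. The ratios ranged from −0.31 to −0.13 for Psmb10 to Psmb7, −0.081 to 0.12 for Psmb8 to Psmb5 and −0.15 to 0.021 for Psmb9 to Psmb6 on the log2 scale. With 5 libraries a group, the absence of a call leaves room for differences within the intervals given.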
